A study of Mus musculus with 18 samples.

Results

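The subject here is the exchange of a wild-type for a null allele of Klf1 in mice that carry the D45 missense allele on the other chromosome. The D45/KO libraries (D45 beside a null, or KO, allele) were set against the WT/D45 libraries (wild type beside D45). The members were chosen by genotype label alone, giving 4 D45/KO and 3 WT/D45 libraries, 7 of the 18 in the series. Both groups carry a single MommeD45 allele, whose missense change the series title places in linker-2 of KLF1, a stretch between zinc fingers. The 3 other genotypes, used below for levels and for comparisons that share no library with this one, were D45/D45 (3 libraries), WT/KO (5) and WT/WT (3). RNA was sequenced from erythroblasts sorted out of spleen by 2 surface proteins, TER119, which appears as red cells mature, and the transferrin receptor CD71. The series design calls the replicates biological. It describes haemolytic anaemia, an enlarged spleen and more erythroid progenitors in compound heterozygous mice, which among these genotypes is D45/KO. An effect of the null allele inside these cells and an effect of anaemia therefore cannot be told apart. The age, sex and strain of the mice, and the part of Klf1 that is missing from the KO allele, are not stated in the labels.

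KLF1 is a zinc finger transcription factor of the red cell lineage. It binds CACC box elements, GC-rich motifs of the form CCNCNCCC, in promoters and enhancers of adult globin, haem synthesis, membrane skeleton, blood group and cell cycle genes. Loss of KLF1 in mice is lethal before birth from failure of red cell production, whereas carriers of a single null allele are viable, and some missense changes in the zinc fingers alter which sites are bound.

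Replacing the wild-type allele by the null allele beside D45 was accompanied by lower transcript levels of 17 genes and higher levels of 6. Those that fell included 4 membrane transport genes, Cacna1g, Slc6a20a, Slc1a5 and Slc2a4, and those that rose included Scai, a transcription cofactor, Clint1 and Srp72, which act in vesicle and secretory traffic, and Prdx6, an antioxidant enzyme. The genes were called at an adjusted p under 0.05 (edgeR quasi-likelihood test, Benjamini-Hochberg adjustment over 13405 genes). This makes 0.172% of the genes tested, with 0.0448% higher and 0.127% lower, and 5.81% of genes (779) passed an unadjusted p of 0.05. The median absolute log2 fold change was 3.27 over the 23 genes, against 0.42 over all genes tested. The 23 were called on the same libraries, which favours large estimates, so this is a description only.

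**Figure D1:**
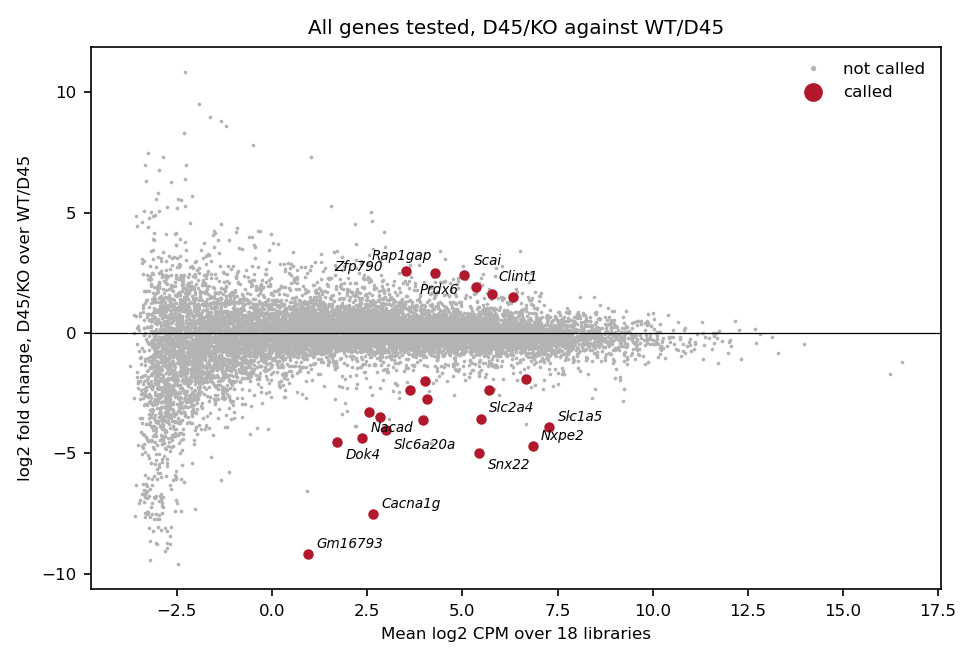
Log2 fold change of D45/KO over WT/D45 (vertical axis) against the mean log2 CPM over 18 libraries (horizontal axis), 1 point per gene tested. The 23 called genes are in red, with 17 below and 6 above 0, and the grey points with the widest spread lie at the left, where levels are low.

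Promoters of called genes are printed to show what a KLF1-type motif search found in genes of either direction. Of the 23 genes, 13 matched a RefSeq promoter of the mouse assembly GRCm38.p6 by symbol, and 7 of these have a single listed start. Of the 7, 3 hold CCNCNCCC on either strand within the 250 bases before the start, against 44.73% of all genes with a single start. The 6 called genes with several starts all hold it in at least 1 window, against 68.92% of all such genes. By window, 18 of 25 (72%) of the called genes hold it, against 45.93% of all 32851, but 7 of the 25 belong to Rap1gap and some windows of a gene overlap. Of the genes with a single start, the 3 are Nxpe2 and Slc6a20a, which fell, and Srp72, which rose. They are given 5′ to 3′ with the matches in capitals, followed by Scai, which rose and has no match. Nxpe2 lies at chr9:48340899-48341148 on the minus strand, Slc6a20a at chr9:123678833-123679082 on the minus strand, Srp72 at chr5:76974451-76974700 on the plus strand and Scai at chr2:39190731-39190980 on the minus strand.
Nxpe2: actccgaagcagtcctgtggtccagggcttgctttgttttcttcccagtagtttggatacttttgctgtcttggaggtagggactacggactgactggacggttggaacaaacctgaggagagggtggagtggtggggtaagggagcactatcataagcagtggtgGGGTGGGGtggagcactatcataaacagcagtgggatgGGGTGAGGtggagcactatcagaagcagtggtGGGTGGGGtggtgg
Slc6a20a: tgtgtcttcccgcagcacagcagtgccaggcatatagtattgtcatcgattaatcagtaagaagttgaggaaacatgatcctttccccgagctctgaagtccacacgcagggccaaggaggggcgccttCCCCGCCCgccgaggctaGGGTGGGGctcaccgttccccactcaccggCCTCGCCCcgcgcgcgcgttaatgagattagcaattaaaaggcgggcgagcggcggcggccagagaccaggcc
Srp72: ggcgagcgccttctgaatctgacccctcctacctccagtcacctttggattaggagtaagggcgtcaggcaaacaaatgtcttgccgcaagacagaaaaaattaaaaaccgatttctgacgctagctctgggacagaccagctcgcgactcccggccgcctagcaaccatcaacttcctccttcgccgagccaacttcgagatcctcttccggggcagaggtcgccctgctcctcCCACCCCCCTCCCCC
Scai: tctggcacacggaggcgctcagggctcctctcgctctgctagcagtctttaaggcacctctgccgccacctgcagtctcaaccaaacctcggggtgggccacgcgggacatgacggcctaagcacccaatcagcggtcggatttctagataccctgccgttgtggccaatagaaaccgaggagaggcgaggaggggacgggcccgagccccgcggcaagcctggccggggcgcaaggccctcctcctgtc
Nxpe2 and Slc6a20a have 3 matches each, and the 3 matches of Srp72 overlap. The stricter form CCACACCC occurs in 3.196% of all windows and in 0 windows of the called genes. A match is a description of letters and not evidence of binding, and enhancers were not searched.

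Depth, given as total counts, was 43.3, 34.5, 10.5 and 36.3 M (M stands for 1000000) in D45/KO replicates 1 to 4 and 56.3, 15.8 and 28.0 M in WT/D45 replicates 1 to 3. The levels below are CPM, counts per 1000000 with library sizes adjusted by TMM, a scaling that allows for the share taken by abundant transcripts. Erythroblast markers were abundant in all 7 libraries, with Slc4a1, the band 3 anion exchanger, at 10918 to 21723 CPM in D45/KO and 6591 to 33864 CPM in WT/D45. Transcripts of other cells differed between libraries. The summed level of 14 B cell markers was 318, 888, 224 and 3.66 CPM in D45/KO and 1535, 18.3 and 3.72 CPM in WT/D45, so that 3 of 4 D45/KO libraries and 1 of 3 WT/D45 libraries were high. The summed level of 22 macrophage and monocyte markers was 5063 CPM in D45/KO replicate 2, 326 to 938 CPM in the other D45/KO libraries and 320 to 570 CPM in WT/D45. Sums of 16 megakaryocyte and platelet markers did not overlap, at 432 to 820 CPM in D45/KO and 48.8 to 176 CPM in WT/D45. Neither did sums of 14 mast cell and basophil markers, at 3.81 to 10.1 CPM in D45/KO and 19.1 to 60.8 CPM in WT/D45. Of all genes tested, 7.68% did not overlap between the groups either. Other genotypes reached the D45/KO levels. In D45/D45 replicates 1 to 3 the megakaryocyte sum was 218, 620 and 501 CPM and the mast cell sum 26.4, 6.72 and 3.13 CPM. In WT/KO these sums ran from 60.8 to 265 CPM and from 9.18 to 37.0 CPM. Most of the megakaryocyte sum in every D45/KO library came from the platelet integrin gene Itga2b, given below and named after its values were seen. Fewer cells of a type and less RNA per cell cannot be told apart in such bulk samples, and the part of other cells in the results below was not tested. The mast cell tryptases Tpsb2 and Tpsab1 were at 0 in all 7 libraries.

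**Figure D2:**
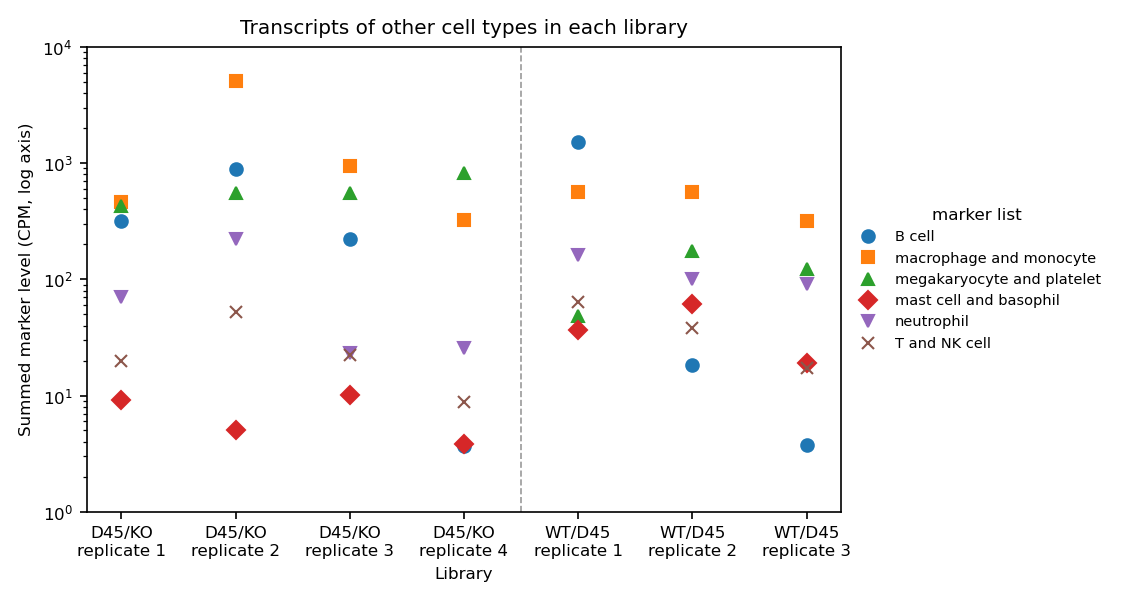
Summed level of 6 lists of marker genes (CPM, log axis) in each D45/KO library (left of the dashed line) and each WT/D45 library (right). B cell markers are high in 3 D45/KO libraries and in WT/D45 replicate 1. Macrophage and monocyte markers stand out in D45/KO replicate 2. The megakaryocyte sum, mostly Itga2b in D45/KO, is higher and the mast cell sum lower in every D45/KO library than in every WT/D45 library.

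Klf1 itself was at 585, 282, 676 and 763 CPM in D45/KO replicates 1 to 4, against 551, 1101 and 1295 CPM in WT/D45 replicates 1 to 3. The groups overlap through WT/D45 replicate 1. D45/KO libraries averaged 576 ± 209 CPM (SD, n = 4), and WT/D45 libraries averaged 982 ± 386 CPM (SD, n = 3). Its log2 fold change of -0.77 ± 0.59 (SE) did not pass the test (edgeR adjusted p = 0.999). In the libraries high in B cell markers the D45/KO levels of 282 to 676 CPM lay on either side of the single WT/D45 value of 551 CPM. Among the low ones the single D45/KO value of 763 CPM lay below the WT/D45 values of 1101 and 1295 CPM. As a check of the genotype labels this is limited, since a null allele need not lower the transcript.

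The 4 transport genes that fell serve different substrates. Cacna1g, which encodes the pore of a T-type voltage-gated calcium channel, was at 0.233, 0.0891, 0.348 and 0.231 CPM in D45/KO, against 13.8, 57.1 and 48.7 CPM in WT/D45. Every D45/KO library was close to 0, with 31 counts in all 4 together, against 3169 counts in the 3 WT/D45 libraries. The ratio of the pooled rates, WT/D45 over D45/KO, was 114 with a 95% exact interval of 80.1 to 168 for counting error alone. Its fitted log2 fold change was -7.53 ± 0.84 (edgeR adjusted p = 7.6e-04).

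Slc1a5, a carrier of glutamine and other neutral amino acids, was at 26.5, 22.1, 25.0 and 36.9 CPM in D45/KO, against 158, 612 and 475 CPM in WT/D45. Slc6a20a, a sodium-coupled carrier of proline and related imino acids, was at 1.06, 1.34, 0.522 and 2.34 CPM in D45/KO, against 14.3, 24.1 and 27.6 CPM in WT/D45. Slc2a4, the insulin-responsive glucose carrier GLUT4, was at 7.79, 6.01, 8.44 and 15.3 CPM in D45/KO, against 45.7, 137 and 148 CPM in WT/D45. The 4 D45/KO libraries lay below the 3 WT/D45 libraries for each of these carriers, and WT/D45 replicate 1, the one high in B cell markers, was the lowest of its group. The log2 fold changes were -3.91 ± 0.65 for Slc1a5, -4.04 ± 0.62 for Slc6a20a and -3.55 ± 0.65 for Slc2a4, with edgeR adjusted p-values of 0.0130, 0.0080 and 0.0270.

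Of the other genes that fell, Nxpe2, a member of the neurexophilin and PC-esterase family, was at 11.0, 8.69, 15.7 and 17.6 CPM in D45/KO, against 183, 322 and 522 CPM in WT/D45. Snx22, a sorting nexin that binds membrane phosphoinositides, was at 4.82, 4.54, 4.87 and 6.63 CPM in D45/KO, against 53.8, 246 and 192 CPM in WT/D45. Both were well expressed in WT/D45 and 25.9-fold and 31.4-fold lower in D45/KO, with log2 fold changes of -4.69 ± 0.65 (edgeR adjusted p = 0.0049) and -4.97 ± 0.74 (edgeR adjusted p = 0.0070). Dok4, an adaptor of receptor tyrosine kinases, was at 0.731, 0.267, 0.348 and 0.404 CPM in D45/KO, against 4.67, 15.4 and 11.0 CPM in WT/D45. Nacad, a protein with the domain of the nascent polypeptide-associated complex, was at 1.15, 0.891, 1.04 and 0.692 CPM in D45/KO, against 7.57, 32.9 and 18.2 CPM in WT/D45. Tac2, the precursor of the tachykinin neurokinin B, was at 1.96, 1.78, 1.39 and 1.73 CPM in D45/KO, against 18.1, 7.90 and 32.7 CPM in WT/D45. Every D45/KO library lay below every WT/D45 library for these 3, and the WT/D45 libraries differed several-fold among themselves. Their log2 fold changes were -4.53 ± 0.81 for Dok4, -4.37 ± 0.73 for Nacad and -3.51 ± 0.60 for Tac2, with edgeR adjusted p-values of 0.0237, 0.0130 and 0.0151.

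The lowest level of any called gene was that of Gm16793, a predicted transcript named here after its values were seen. It had 2 counts in the 4 D45/KO libraries, both in replicate 1, against 817 counts in the 3 WT/D45 libraries, where it was at 3.91, 8.33 and 13.4 CPM. The ratio of the pooled rates, WT/D45 over D45/KO, was 455 with a 95% exact interval of 126 to 3765, and the edgeR adjusted p was 7.6e-04. Mfhas1, a leucine-rich repeat protein with a Ras-like domain, was at 2.30, 8.82, 2.96 and 0.404 CPM in D45/KO, against 32.7, 43.6 and 56.6 CPM in WT/D45. Its log2 fold change was -3.61 ± 0.66 (edgeR adjusted p = 0.0270). Gm16793 and Mfhas1 overlap head to head on opposite strands in the mouse annotation GENCODE M21. No source used here says whether the authors counted by strand, so reads of the pair may not be separable.

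The remaining 6 genes that fell are given after their values were seen. They were Svip, an inhibitor of the degradation of proteins from the endoplasmic reticulum, Eef2k, the kinase that slows translation by phosphorylating elongation factor eEF2, Tusc3, a subunit of the oligosaccharyltransferase, Limd1, a LIM domain scaffold, Fbxl19, an F-box protein that binds unmethylated CpG islands, and Fsd1l, a relative of the microtubule-associated FSD1. Their log2 fold changes ran from -3.27 ± 0.53 for Fsd1l to -1.90 ± 0.34 for Limd1. Svip ranged from 3.41 to 7.04 CPM in D45/KO and from 25.8 to 38.0 CPM in WT/D45. Eef2k ranged from 16.9 to 24.1 CPM in D45/KO and from 60.4 to 145 CPM in WT/D45. In neither gene did a D45/KO library reach the lowest WT/D45 library.

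**Figure D3:**
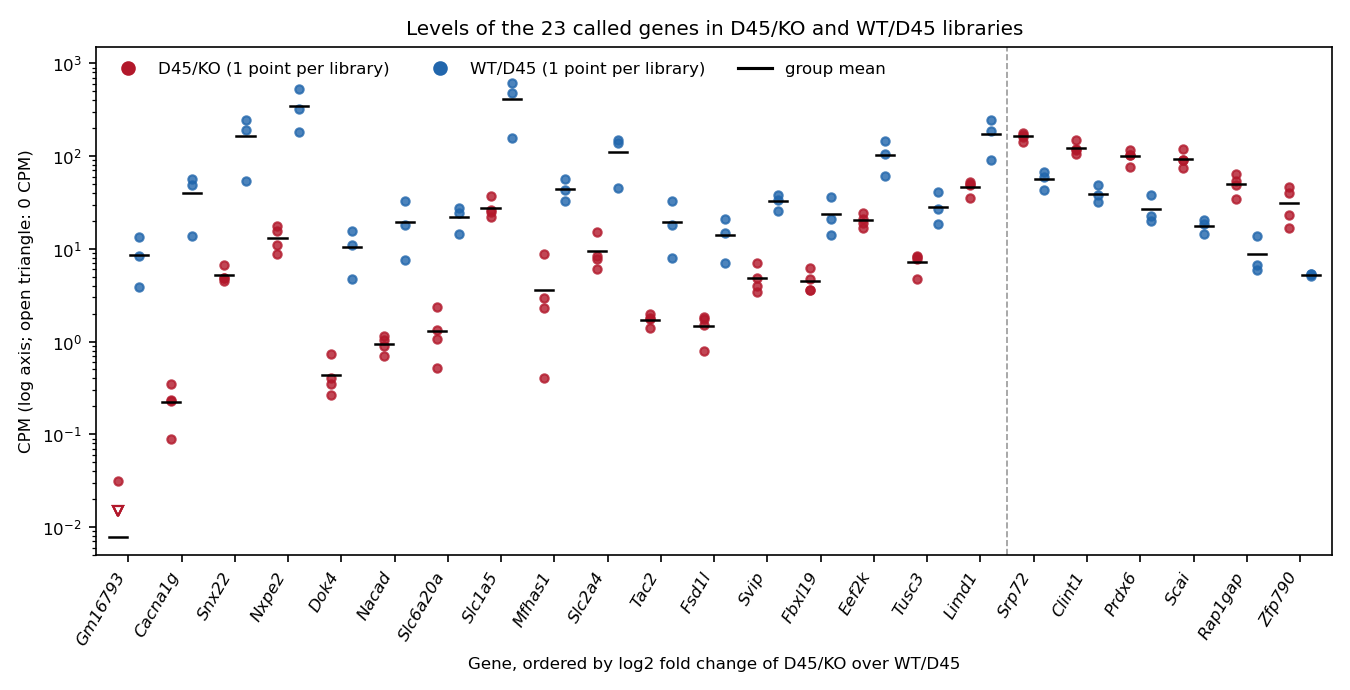
Level of each of the 23 called genes (CPM, log axis) in 4 D45/KO libraries (red, left of each pair) and 3 WT/D45 libraries (blue, right of each pair), with black bars at the group means and an open triangle for 0 CPM (3 D45/KO libraries of Gm16793). Genes left of the dashed line are lower and genes right of it higher in D45/KO, and the 2 groups of points do not overlap for any gene.

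Of the 6 genes that rose, Scai, a cofactor that represses transcription by MRTF and SRF, was at 90.8, 75.2, 118 and 91.5 CPM in D45/KO, against 18.5, 20.3 and 14.3 CPM in WT/D45. Its log2 fold change was 2.41 ± 0.31 with an edgeR adjusted p of 0.0028, the smallest of the genes that rose. Zfp790, a zinc finger protein, was at 16.7, 23.0, 40.4 and 45.8 CPM in D45/KO, against 5.10, 5.34 and 5.30 CPM in WT/D45 (2.58 ± 0.39). Rap1gap, which switches off the small GTPase RAP1, was at 48.4, 34.8, 53.6 and 64.1 CPM in D45/KO, against 13.8, 5.98 and 6.74 CPM in WT/D45 (2.50 ± 0.48). Zfp790 ranged widely among the D45/KO libraries, while its WT/D45 levels were nearly equal. The edgeR adjusted p was 0.0070 for Zfp790 and 0.0391 for Rap1gap.

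Clint1, an epsin-like adaptor of clathrin coats at the trans-Golgi network, was at 150.2, 117, 119 and 105 CPM in D45/KO, against 48.3, 38.0 and 31.8 CPM in WT/D45. Srp72, a subunit of the signal recognition particle that targets proteins to the endoplasmic reticulum, ranged from 143 to 177 CPM over the D45/KO libraries, against 59.8, 43.1 and 68.1 CPM in WT/D45. Prdx6, a peroxiredoxin that reduces phospholipid hydroperoxides, was at 103, 77.0, 104 and 116 CPM in D45/KO, against 38.0, 22.6 and 19.7 CPM in WT/D45. All 3 were well expressed in both groups, with log2 fold changes of 1.64 ± 0.24 for Clint1, 1.52 ± 0.23 for Srp72 and 1.90 ± 0.30 for Prdx6. Their edgeR adjusted p-values were 0.0070, 0.0080 and 0.0103.

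All 23 genes separated the D45/KO from the WT/D45 libraries without overlap, as did 7.68% of all genes tested. The 23 had been called on the same 7 libraries. For 19 of the 23 genes all 4 D45/KO libraries also lay beyond all 14 other libraries of the series, against 0.836% of all genes tested, a description only, since the calls rest on the same D45/KO libraries. The exceptions were Zfp790, Rap1gap, Dok4 and Mfhas1. Cacna1g was at 2.65 to 4.42 CPM in D45/D45, 2.54 to 29.7 CPM in WT/KO and 44.6 to 143 CPM in WT/WT. Scai was at 44.4 to 60.7 CPM in D45/D45, 20.4 to 44.2 CPM in WT/KO and 9.19 to 16.4 CPM in WT/WT. Slc1a5 was at 109.9 to 247 CPM in D45/D45, 99.2 to 450.1 CPM in WT/KO and 216 to 665 CPM in WT/WT. The D45/D45 mean was nearer than the WT/KO mean to the D45/KO mean for 21 of the 23 on the log2 scale, against 53.2% of all genes with no group mean of 0.

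Comparisons made without any D45/KO or WT/D45 library pointed the same way. In D45/D45 against WT/WT all 23 genes had the same sign as in D45/KO against WT/D45, where 55.9% of all genes did. In WT/KO against WT/WT all 23 did as well, where 60.8% of all genes did, although Prdx6 did so by less than 0.01 on the log2 scale. These 2 comparisons share the WT/WT libraries. Their libraries also differed in B cell markers, summed at 2392, 1945, 2135, 5.60 and 4.62 CPM in WT/KO replicates 1 to 5. The sums were 989, 2.43 and 6.55 CPM in D45/D45 and 1328, 10.3 and 11.0 CPM in WT/WT. The part of these cells in the shared signs was not tested. The median absolute log2 fold change of the 23 was 1.69 in D45/D45 against WT/WT and 0.89 in WT/KO against WT/WT, against 0.46 and 0.60 over all genes. Cacna1g had -4.64 ± 0.82 in D45/D45 and -2.74 ± 0.63 in WT/KO, each against WT/WT, and Scai 1.86 ± 0.32 and 1.06 ± 0.29. Slc2a4, by contrast, had -0.55 ± 0.66 and -0.76 ± 0.57. No gene passed edgeR's test in either comparison (0% of genes each). An unadjusted p under 0.05 was found for 545 genes (4.07%) in D45/D45 against WT/WT, 18 of the 23 among them, and for 573 genes (4.27%) in WT/KO against WT/WT, 11 of the 23 among them. DESeq2 called 67 genes in the first comparison and 18 in the second, limma-voom called 0 and 1, and limma-voom with library weights called 138 and 1160. edgeR called 60 and 4 with a term for B cell markers, and with the replicate number as a block 10 and 0 (3818 genes at an unadjusted p under 0.05 in the second).

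**Figure D4:**
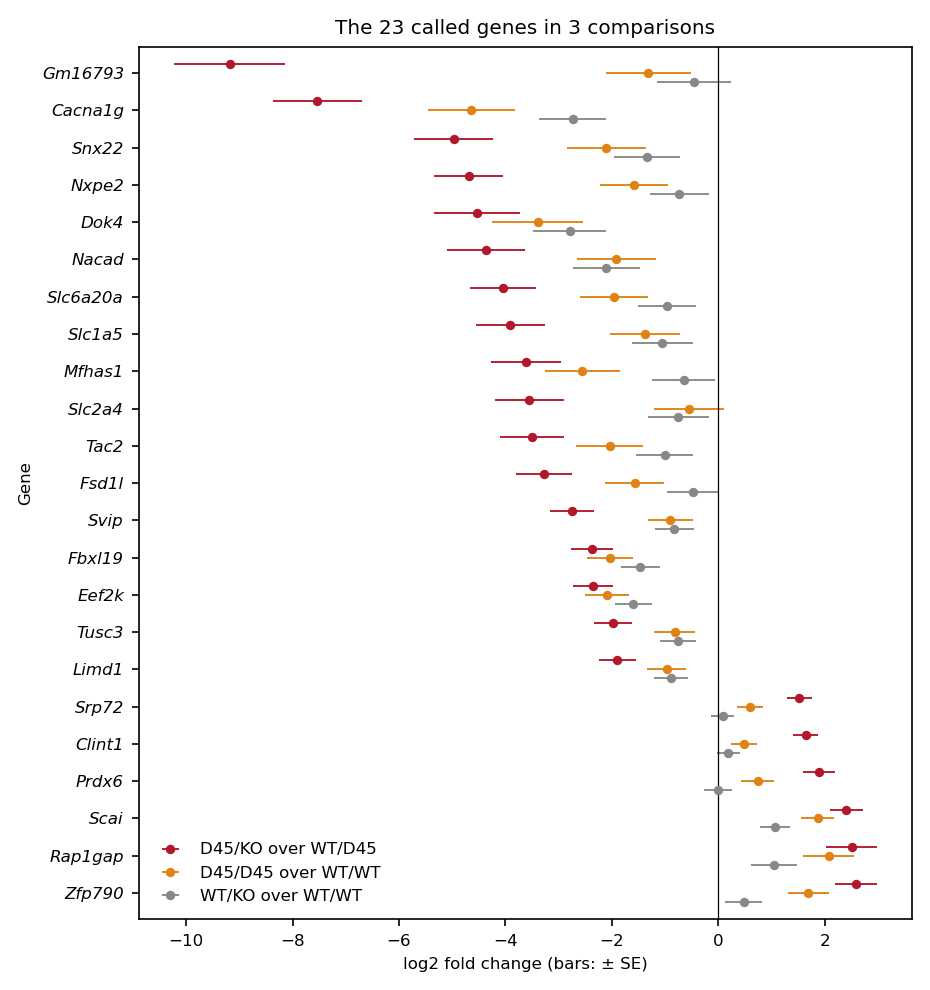
Log2 fold change with its SE (horizontal axis) of the 23 called genes in D45/KO over WT/D45 (red), D45/D45 over WT/WT (orange) and WT/KO over WT/WT (grey). The red points lie farthest from 0 for every gene, which calling the genes on the red comparison favours. All orange and grey points lie on the same side of 0 as the red ones or at 0.

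An interaction term asked whether the null allele in place of wild type moves a gene differently beside D45 than beside wild type, that is, D45/KO against WT/D45 compared with WT/KO against WT/WT. It was called for 1 gene (0.00746% of genes tested), with 329 (2.45%) at an unadjusted p under 0.05. This was Gm16793, with an interaction of -8.73 ± 1.27 (edgeR adjusted p = 0.0400). Gm16793 was at 1.62 to 9.21 CPM in WT/KO and 4.59 to 11.9 CPM in WT/WT, a log2 fold change of -0.45 ± 0.70, whereas the D45/KO libraries held 2 counts. The interaction of the other genes that changed did not pass. It was -4.79 ± 1.004 for Cacna1g, -3.96 ± 0.85 for Nxpe2 and 1.90 ± 0.40 for Prdx6, each with an edgeR adjusted p of 0.433. Apart from Gm16793 no called gene passed the test of the difference itself. Cda, cytidine deaminase, was at 21.5, 6.06, 13.5 and 11.7 CPM in D45/KO, against 0.0567, 0 and 0 CPM in WT/D45, and was at 0 in 4 of 5 WT/KO libraries. Neither its interaction (edgeR adjusted p = 0.433) nor D45/KO against WT/D45 (edgeR adjusted p = 0.0772) passed the test. D45/KO against WT/D45 did pass for Cda with DESeq2 (DESeq2 adjusted p = 9.95e-08) and limma-voom (limma-voom adjusted p = 0.0090). It also passed with the B cell marker covariate (edgeR adjusted p = 0.0024). No gene passed edgeR's test of the interaction when any D45/KO library, any WT/WT library, WT/D45 replicate 2 or 3, or WT/KO replicate 1, 3 or 4 was left out (253 to 1311 genes at an unadjusted p under 0.05).

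Known KLF1 targets gave a single call. Of 38 measured genes of a textbook list, 1 fell (Slc2a4) and 0 rose, where 0.127% of all genes tested fell and 0.0448% rose. The median log2 fold change was -0.43, against -0.03 over all genes, with 27 of the 38 below 0. It was -0.05 without WT/D45 replicate 2 and -0.80 without WT/D45 replicate 1. The median differed between libraries high and low in B cell markers. It was 0.74 among the libraries high in them, -0.33 among the low ones and 0.19 with their level as a covariate. Epb4.9, the gene of dematin, which bundles actin in the membrane skeleton, was at 100.4, 110.5, 226 and 349 CPM in D45/KO, against 496, 2009 and 1672 CPM in WT/D45. The groups did not overlap, but the log2 fold change of -2.82 ± 0.76 did not pass the test (edgeR adjusted p = 0.244). It passed once the B cell marker level was a term of the fit (-2.34 ± 0.26, edgeR adjusted p = 3.9e-05). The other fixed members overlapped between the groups and did not pass, each with an edgeR adjusted p of 0.999. They were Slc4a1 (-0.46 ± 1.29), ankyrin Ank1 (0.12 ± 0.67), beta globin Hbb-b1 (-1.71 ± 3.31), the haem synthesis enzyme Alas2 (-0.84 ± 1.34), the transferrin receptor Tfrc (-0.36 ± 0.70), the water channel Aqp1 (-0.65 ± 0.67), the cell cycle factor E2f2 (-0.71 ± 0.77), the globin repressor Bcl11a (-0.71 ± 1.11) and the adhesion receptor Cd44 (0.42 ± 0.96). Hbb-b1 varied widely between libraries, at 29765 to 61542 CPM in D45/KO and 25561 to 302432 CPM in WT/D45. Its SE also depended on the method, at 3.31 in edgeR, 0.99 in DESeq2 and 1.24 in limma-voom.

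Within the red cell membrane, transport genes held all the calls. Of 40 measured transporters and channels 4 fell and 0 rose, where 0.127% of all genes tested fell and 0.0448% rose. Yet the list's median was -0.02, as close to 0 as that of all genes. The list was drawn up with earlier results of these data known, so its share of calls is no independent result. The members that did not pass went either way, from the potassium channel Kcnn4 at -1.59 ± 0.63 to Lrrc8b, part of the anion channels that open when cells swell, at 3.43 ± 0.77 (named, like the next 3 genes, after their values were seen). Lrrc8b was at 92.6, 82.5, 173 and 115 CPM in D45/KO, against 7.05, 4.70 and 20.5 CPM in WT/D45, without overlap (edgeR adjusted p = 0.108). The mechanosensitive channel Piezo1 had 1.48 ± 0.37 (edgeR adjusted p = 0.178). None of 25 membrane skeleton genes passed (median -0.06). Tropomodulin Tmod3, which caps actin filaments, was at 165 to 297 CPM in D45/KO and 56.2 to 66.3 CPM in WT/D45 (1.82 ± 0.39, edgeR adjusted p = 0.0827). None of 25 blood group and surface glycoprotein genes passed either (median -0.36, with 18 below 0). Their extremes were the fatty acid receptor Cd36, at 34.8 to 72.7 CPM in D45/KO and 172 to 889 CPM in WT/D45 (edgeR adjusted p = 0.108), and the sialomucin podocalyxin, Podxl. Podxl was at 152, 55.2, 137 and 58.0 CPM in D45/KO, against 5.09, 2.78 and 4.05 CPM in WT/D45, with an edgeR adjusted p of 0.164.

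**Figure D5:**
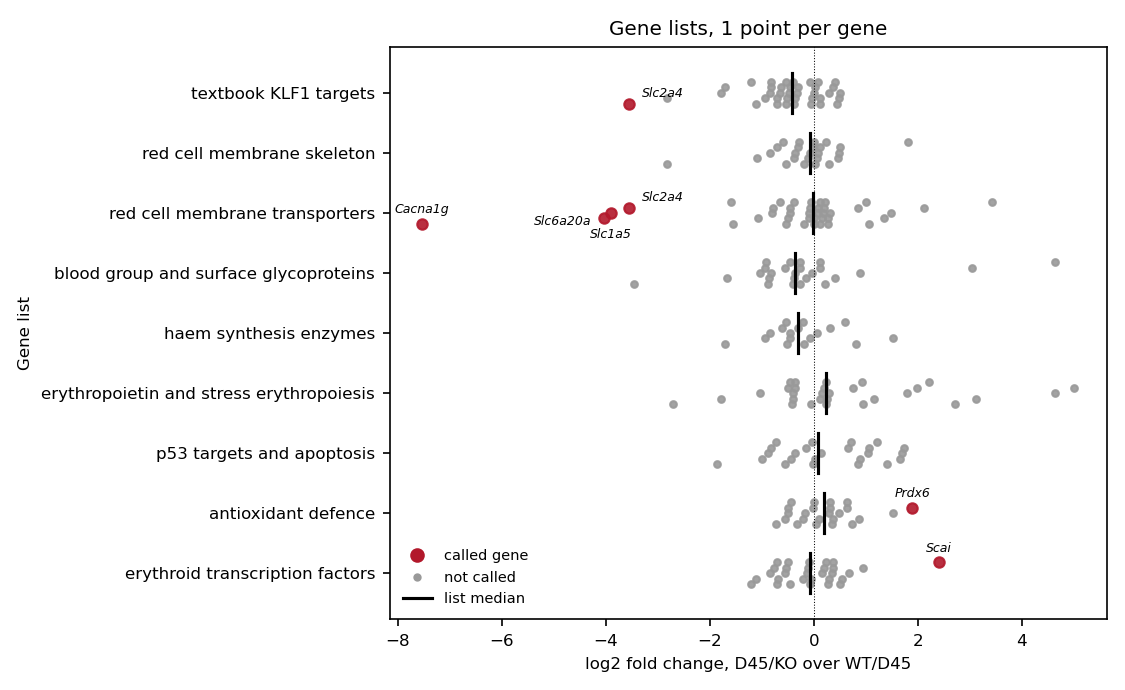
Log2 fold change of D45/KO over WT/D45 (horizontal axis) for the measured members of 9 gene lists, 1 point per gene, with called genes in red and named and a black bar at each list's median. The called genes lie far from medians that run from -0.43 to 0.23.

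Erythropoietin signalling and stress responses gave few calls. Of 29 genes of erythropoietin signalling and stress erythropoiesis, 0 passed (median 0.23). Cish, a feedback inhibitor induced by STAT5, was at 101, 98.8, 121 and 83.1 CPM in D45/KO, against 8.09, 0 and 0.910 CPM in WT/D45. All 4 D45/KO libraries were high, and the log2 fold change of 5.01 ± 1.22 missed the threshold (edgeR adjusted p = 0.164). It passed without WT/D45 replicate 1 (7.59, edgeR adjusted p = 0.0317). Of 24 p53 targets and apoptosis genes 0 passed (median 0.09), with 7 higher and 1 lower at an unadjusted p under 0.05, which 5.81% of all genes tested had. Mdm2, the ligase that restrains p53, was at 109.9 to 152 CPM in D45/KO and 41.6 to 72.4 CPM in WT/D45, and Trp53 itself at 95.7 to 120.2 CPM in D45/KO and 38.8 to 58.7 CPM in WT/D45 (edgeR adjusted p = 0.308 and 0.256, both named after their values were seen). Of 24 antioxidant genes 1 rose, Prdx6 (median 0.20), and of 30 erythroid transcription factors and cofactors 1 rose, Scai (median -0.08). Of all genes tested 0.0448% rose. The lists were chosen with earlier results of these data known, so these counts are no independent result.

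The other lists had 0 called genes. Their medians were -0.30 for 17 haem synthesis enzymes, -0.12 for 18 iron handling genes, 0.05 for 20 glycolytic enzymes, -0.54 for 16 progenitor genes, -0.16 for 27 terminal maturation genes, -0.28 for 30 replication and mitosis genes, -0.16 for 22 G1 regulators, 0.04 for 24 integrated stress genes, -0.09 for 28 interferon genes and -0.28 for 74 cytosolic ribosomal proteins. Among markers of other cells, the median was -0.51 for B cells, -0.58 for T and NK cells, -0.68 for neutrophils, 0.67 for megakaryocytes, -2.27 for mast cells and 0.14 for endothelium. It was 2.22 for macrophages, and 0.43 without D45/KO replicate 2. List medians rested on single libraries, and 16 of 27 changed sign when 1 was left out. Without WT/D45 replicate 1 the median was 5.36 for B cells, 0.86 for T and NK cells, 0.38 for progenitor genes and 0.75 for glycolytic enzymes. Without WT/D45 replicate 2 it was 0.19 for terminal maturation genes and -0.13 for glycolytic enzymes, and without D45/KO replicate 2 it was -2.25 for endothelium, -1.51 for B cells, -1.64 for neutrophils and -0.13 for the erythropoietin list. Itga2b, the platelet integrin that early progenitors also express, was at 324, 415, 405 and 654 CPM in D45/KO, against 13.5, 73.6 and 40.1 CPM in WT/D45 (named after its values were seen, edgeR adjusted p = 0.310). Tinagl1, a secreted matrix protein of the endothelial list, had 27 counts in D45/KO and 1110 in WT/D45, an edgeR adjusted p of 0.0772 and a pooled ratio, WT/D45 over D45/KO, of 45.8 (95% exact interval 31.3 to 69.8).

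The number of calls depended on the libraries. It was 11, 15, 11 and 12 without D45/KO replicate 1, 2, 3 or 4, 30 without WT/D45 replicate 1 and 8 and 7 without WT/D45 replicate 2 or 3. The genes called in all 7 of these fits were Cacna1g, Gm16793, Nxpe2, Svip, Snx22 and Scai. Of the other transport genes that fell, Slc6a20a was called in 5 of the 7 fits, and Slc1a5 and Slc2a4 in 1 each. With the level of B cell markers as a covariate 326 genes passed (2.43%), 201 higher (1.5%) and 125 lower (0.932%), all 23 among them. Among the libraries high in these markers, with WT/D45 replicate 1 alone on its side, 5 genes passed, 4 of the 23 among them, and among the low ones, with D45/KO replicate 4 alone, 125 passed, 21 of the 23 among them. In both fits the lone library was assumed to vary like the other groups, and these libraries are among those that gave the calls. Cacna1g had -6.15 among the high and -7.76 among the low libraries, Slc1a5 -2.75 and -3.83, and Scai 2.28 and 2.45. The high libraries include all those of mice numbered under 200 in the labels, which do not call the number a batch. The other mice alone, 2 each in D45/KO and WT/D45, gave 0 calls by edgeR, and 677 genes at an unadjusted p under 0.05.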

How the data were processed

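Per the labels' protocols, Trizol was used on sorted spleen cells and the Swift Rapid kit for RNA libraries. HISAT2, featureCounts, limma and the mm9 genome are named without versions, per the submitters' processing notes. Strand use was not stated there. The deposited table holds raw counts, which the authors made per gene symbol, in 23365 rows for 18 libraries. It includes 27 symbols turned into dates and 2 that recur, and none is named. The authors' other table was not used here.

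From the counts, R 4.3.3 and edgeR 4.0.16 kept the 13405 genes that passed filterByExpr by genotype (minimum count 10) and fitted all 18 libraries with TMM and genotype as the only term. The quasi-likelihood fit was made without robust estimation. Genes were called at an adjusted p under 0.05. Library sizes for CPM were TMM-adjusted, and a prior count of 2 was added for log2 CPM. The SE, the log2 fold change over the root of F, is approximate. Depth ran from 9.36 to 56.3 M counts (M stands for 1000000), and 95% exact intervals of count ratios cover counting error only. The edgeR fit was tried on simulated counts with known changes in D45/KO. Those counts held no differences in cell make-up between libraries, so the trial does not cover that source of spread.

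Alternatives were DESeq2 1.42.0 and its size factors, limma-voom (limma 3.58.1), no filter, robust estimation, fewer libraries, a B cell marker covariate or split (at a mean log2 CPM of 3), the mouse number (at 200), the replicate number as a block and each library left out. Promoters came from RefSeq tables of GRCm38.p6, a later build than mm9.

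The members, the gene lists and the tests were chosen with earlier results of these data known. Named genes are Klf1, up to 10 called genes with the largest fall and 10 with the largest rise (mean of at least 2 CPM in the higher group, groups not overlapping, no predicted transcripts), in each direction the 3 genes of smallest adjusted p, up to 2 called genes in each direction per list, a fixed set of erythroid genes and, as no nameable gene was called in the interaction, its 2 smallest p-values in each direction. Others are marked as named after their values were seen.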

Additional observations from a re-analysis of the deposited data

Results flagged for a closer look

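Of 48 groups of libraries checked for a single library far from the rest, 4 stood out by Dixon's 95% critical value. That value by its construction marks about 1 group in 20 if values are normally distributed, which was not tested for these CPM. Gm16793 in D45/KO was at 0.0311 CPM in replicate 1 and at 0 in the other 3 libraries (gap over range 1), which any single library above 0 among zeros gives. Snx22 in D45/KO was at 6.63 CPM in replicate 4 and at 4.54 to 4.87 CPM in the others (gap over range 0.844). Fbxl19 in WT/KO was at 7.53 CPM in replicate 2 and at 13.5 to 15.5 CPM in the others (0.747). Tac2 in WT/KO was at 26.4 CPM in replicate 5 and at 4.65 to 9.43 CPM in the others (0.780).

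The interaction of Gm16793 was -8.73 ± 1.27 on the log2 scale (edgeR adjusted p = 0.0400), and the D45/KO libraries held 2 counts of it. It was not called with limma-voom, the replicate block or the mouse number term, nor when any D45/KO library was left out. The transcript overlaps Mfhas1 on the opposite strand, and the interaction of Mfhas1 was -2.95 with an edgeR adjusted p of 1.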

How the results depend on the processing

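D45/KO against WT/D45 gave 23 called genes. Other settings gave 41 (12 higher and 29 lower) with DESeq2's size factors in edgeR, 233 with DESeq2 (115 and 118), 49 with limma-voom (32 and 17), 194 with library weights (80 and 114), 43 with the mouse number class as a term, 326 with the B cell marker covariate, 5 and 125 in the libraries high and low in B cell markers alone, and 0 in the mice numbered 200 or more. Leaving out 1 library gave 7 to 30. The 23 were all among the calls with DESeq2, its size factors, library weights, the mouse number term and the covariate, and 20 of them with limma-voom. Fitting the 7 libraries alone gave 25, 13 of the 23 among them. No filter gave 26 and robust estimation 23. The replicate numbers pair no animals, and same-numbered D45/KO and WT/D45 libraries had deviations correlated at 0.32, -0.05 and 0.09. With the replicate number as a block 95 genes passed (25 higher and 70 lower), the 23 among them.

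The interaction gave 1 gene. It gave 17 with DESeq2, 23 with the B cell marker covariate, 16 in the low libraries, 6 with library weights, and 0 with limma-voom, with the 15 libraries of its 4 genotypes, with the replicate block, with the mouse number term, in the high libraries and in mice numbered 200 or more. Leaving out a library gave 0 to 2. Where 0 genes were called without a library, 253 to 1311 had an unadjusted p under 0.05 in edgeR.

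No named gene changed sign past the threshold in any setting, which groups without overlap all but fix. Over settings the called genes kept their call in 328 instances and lost it in 132, and genes not called gained one in 27, among them Cish, Podxl, Tinagl1 and Epb4.9. Cda is outside that count and gained a call with DESeq2, limma-voom and the B cell marker covariate. Of list medians, 46 of those recomputed moved by more than the replicate spread, and the cause was not tested. The sign counts in D45/D45 and WT/KO against WT/WT were 23 and 20 to 23. Levels under about 1 CPM rest on few counts.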

Other observations

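With the level of B cell markers as a covariate, lists that had no call without it and lists that had some gained calls. The genes named here were chosen after their values were seen. The membrane skeleton list gained 1 higher and 2 lower, and the blood group list 2 higher and 2 lower. Of 24 p53 targets and apoptosis genes 5 rose in D45/KO against WT/D45, among them Mdm2 (1.42 ± 0.21), Bbc3, which encodes the death protein PUMA (2.29 ± 0.32), and Ccng1, cyclin G1 (1.66 ± 0.38), and 0 fell. The list's median was 0.68 with the covariate and 0.09 without. Of 29 erythropoietin genes 3 rose, Cish (5.03 ± 1.03), Podxl (4.56 ± 0.94) and the kinase Pim1 (1.83 ± 0.33). Of 30 erythroid transcription factors and cofactors 4 rose, Scai, Bach1, a haem-sensing repressor (1.21 ± 0.21), Lyl1 (0.85 ± 0.20) and Runx1 (0.89 ± 0.20), and Klf3 fell (-0.83 ± 0.21). Scai, also called without the covariate, is in a list chosen with earlier results of these data known.

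Of 38 KLF1 targets 3 fell with the covariate, Epb4.9, Slc2a4 and Klf3, and 0 rose. Of 40 membrane transporters 6 fell and 4 rose, with Kcnn4 (-1.16 ± 0.20) and the potassium-chloride cotransporter Slc12a4 (-1.64 ± 0.37) beside the earlier 4, and Lrrc8b (3.75 ± 0.59), Piezo1 (1.48 ± 0.34), the zinc exporter Slc30a1 (1.98 ± 0.31) and Atp1b2 (2.08 ± 0.54) higher. Markers of megakaryocytes moved with these genes, with 3 of 13 higher (Itga2b, Gp6 and Vwf), and their part was not tested. These calls used edgeR with adjustment over all genes, where 2.43% of genes passed.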
